A study of Mus musculus with 26 samples.

Results

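Slc44a3, Ptpn14, Rcbtb2, Prom1, Adgrl2 and Kif1c were 6 of the 18193 genes measured on 26 Affymetrix expression arrays of mouse embryonic stem cells, and they were chosen by their measured values. Each was higher in the arrays labelled Prdm14 knockout than in wild-type arrays in 4 media, and lower again in 3 of those media in arrays of knockout cells that carried a Prdm14 transgene. Those differences are therefore given below as a description, without a test. In all, 24 genes were called higher in the arrays labelled knockout in all 4 media (limma, adjusted p under 0.05 over all genes in each medium). Of these, 9 were also called lower with the transgene in all 3 media in which it was measured, namely the 6 genes and Fat1, 3110009E18Rik and Eif1ax.

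The study asked how Prdm14 acts in stem cells under different signalling conditions. AGP14 cells were labelled Prdm14 knockout and carried the pPyCAG-AGP14 transgene, which makes an Avitag-EGFP-Prdm14 fusion protein from a constitutive plasmid promoter rather than from the gene's own locus. Knockout cells were labelled Prdm14 knockout with no transgene, and wild-type cells had no genetic modification. All lines were C57BL/6 and male, and the stem cells grew on mouse embryonic fibroblast (MEF) feeders, whose RNA is part of what the arrays measured. The media were 2i (N2B27 with 0.4 uM of the MEK inhibitor PD0325901, 3 uM of the GSK3 inhibitor CHIR99021 and 1000 units/ml LIF), serum (20% fetal bovine serum with 1000 units/ml LIF, for 2 days), serum without LIF for 2 days, and serum with LIF and 0.4 uM PD0325901 for 2 days. AGP14 cells in serum with MEK inhibitor were not analysed here. Epiblast-like cells (EpiLC), taken at day 2 and at day 3, had intact Prdm14 and came from another line, which carries Blimp1-mVenus and Stella-ECFP reporter transgenes. Each of the 13 groups had 2 arrays. The labels do not say whether the 2 were separate cultures or clones, and p-values therefore reflect the spread between the arrays of a group, possibly technical. Values are log2 signals as deposited, with the base of the logarithm inferred, so a difference of 1 is a 2-fold change. Signals of different genes come from different probe sets and are not compared with each other.

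PRDM14 is a zinc-finger protein with a PR domain, made in naive pluripotent stem cells and early germ cells, that is known mostly as a repressor and that works with polycomb complexes. The 6 genes do not form 1 pathway. Slc44a3 belongs to the choline transporter-like family of membrane proteins. Prom1 (prominin 1, CD133) encodes a pentaspan glycoprotein of membrane protrusions that is widely used as a stem cell surface marker. Adgrl2 (latrophilin 2) encodes an adhesion G protein-coupled receptor. Ptpn14 encodes a tyrosine phosphatase with a FERM domain that binds YAP, the effector of the Hippo pathway. Rcbtb2 encodes a protein with RCC1 repeats and a BTB domain. Kif1c encodes a kinesin-3 motor that carries vesicles along microtubules.

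The probe set of Prdm14 itself ran against the labels in 2 of the 4 media. In 2i its values were 9.30 and 9.11 in AGP14 arrays, 11.33 and 11.24 in the arrays labelled knockout and 8.95 and 9.40 in wild-type arrays. With MEK inhibitor its values were 10.60 and 10.87 in the arrays labelled knockout and 9.04 and 9.48 in wild-type arrays. In both media the arrays labelled knockout were the higher ones. Without LIF they were the lower ones, at 3.21 and 4.05 against 4.28 and 5.17 in wild type, and in serum they overlapped wild type, at 5.40 and 6.47 against 5.88 and 7.38. AGP14 arrays read 6.42 and 6.33 in serum and 5.12 and 4.86 without LIF. In 2i, serum and serum without LIF they thus lay within the wild-type values. Whether this probe set can detect the transgene was not tested. Probes that lie outside a deletion say nothing about it, and the sources used here do not give its position. Every direction below rests on the labels. The arrays also fell into 2 sets by a spike-in control, an RNA added to the samples: the lys control lay between 13.4 and 13.5 on 12 arrays (EpiLC and, in 2i and with MEK inhibitor, knockout and wild type) and between 6.86 and 7.44 on the other 14. Knockout and wild type were always in the same set, and AGP14 in 2i was not in the set of the other 2i arrays.

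The genes lie on 5 chromosomes in RefSeq's GRCm38.p6 annotation, all protein-coding, with Slc44a3 (chr3:121459528-121532344) and Adgrl2 (chr3:148815586-148989096) on the same one. Ptpn14 spans chr1:189728216-189876695, Prom1 chr5:43993621-44102047, Kif1c chr11:70700396-70731970 and Rcbtb2 chr14:73138745-73184055. Because they were selected for moving together, the sequence around their annotated starts is described here. The RefSeq promoter table has 300-base windows (250 bases before to 50 after a start) for all 6 genes. Taking the first listed window of each gene, the windows with the most CpG dinucleotides, those of Kif1c and Ptpn14, and the window with the fewest, that of Adgrl2, are shown with that of Slc44a3, the gene with the largest differences. Each reads 5′ to 3′ on the gene's strand and capitals mark CpG. They are Ptpn14 at chr1:189728018-189728317 (plus strand), Kif1c at chr11:70700298-70700597 (plus), Slc44a3 at chr3:121532295-121532594 (minus) and Adgrl2 at chr3:148954586-148954885 (minus).
Ptpn14: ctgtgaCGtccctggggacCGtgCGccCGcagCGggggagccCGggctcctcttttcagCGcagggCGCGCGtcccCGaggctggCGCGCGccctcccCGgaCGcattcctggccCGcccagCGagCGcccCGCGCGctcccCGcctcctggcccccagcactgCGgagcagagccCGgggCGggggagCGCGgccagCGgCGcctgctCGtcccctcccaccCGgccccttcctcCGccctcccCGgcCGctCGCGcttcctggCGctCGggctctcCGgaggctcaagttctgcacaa
Kif1c: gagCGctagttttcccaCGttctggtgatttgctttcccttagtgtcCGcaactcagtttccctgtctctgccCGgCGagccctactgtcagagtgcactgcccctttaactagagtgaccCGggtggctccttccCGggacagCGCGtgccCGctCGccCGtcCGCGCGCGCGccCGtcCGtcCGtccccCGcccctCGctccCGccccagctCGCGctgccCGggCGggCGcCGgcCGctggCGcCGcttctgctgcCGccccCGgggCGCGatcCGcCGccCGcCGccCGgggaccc
Slc44a3: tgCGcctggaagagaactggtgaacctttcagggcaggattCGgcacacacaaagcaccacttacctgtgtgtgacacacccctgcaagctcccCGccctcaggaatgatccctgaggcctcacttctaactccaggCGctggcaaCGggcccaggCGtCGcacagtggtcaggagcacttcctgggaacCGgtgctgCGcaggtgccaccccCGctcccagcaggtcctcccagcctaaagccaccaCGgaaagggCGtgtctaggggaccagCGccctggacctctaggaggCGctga
Adgrl2: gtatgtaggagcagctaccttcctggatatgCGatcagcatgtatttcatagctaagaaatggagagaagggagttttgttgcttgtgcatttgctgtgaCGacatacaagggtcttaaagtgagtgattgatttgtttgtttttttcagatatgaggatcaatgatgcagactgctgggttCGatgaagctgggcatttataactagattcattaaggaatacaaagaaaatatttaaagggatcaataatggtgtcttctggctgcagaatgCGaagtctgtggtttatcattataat
The Ptpn14 window held 40 CpG at 78.3% GC and the Kif1c window 41 CpG at 73.3% GC, against a median of 7 CpG and 52.7% GC over 32851 mouse windows. The Slc44a3 window held 14 CpG, the Prom1 window at chr5:44101687-44101986 held 10, the Rcbtb2 window at chr14:73142535-73142834 held 8 and the Adgrl2 window held 4. So the genes were not alike in this respect at the starts listed. The Adgrl2 start used lies 34.5 kb inside the annotated gene and the Rcbtb2 start 4.04 kb inside. These windows, the 2 with the fewest CpG, are therefore not those of the outermost starts. The letters GGTCTCTAA, described as a PRDM14 binding motif, were searched on both strands. They were in 0 of the 8 windows listed for the 6 genes and in 0.256% of all windows, which says only that these letters are not in these windows.

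**Figure D1:**
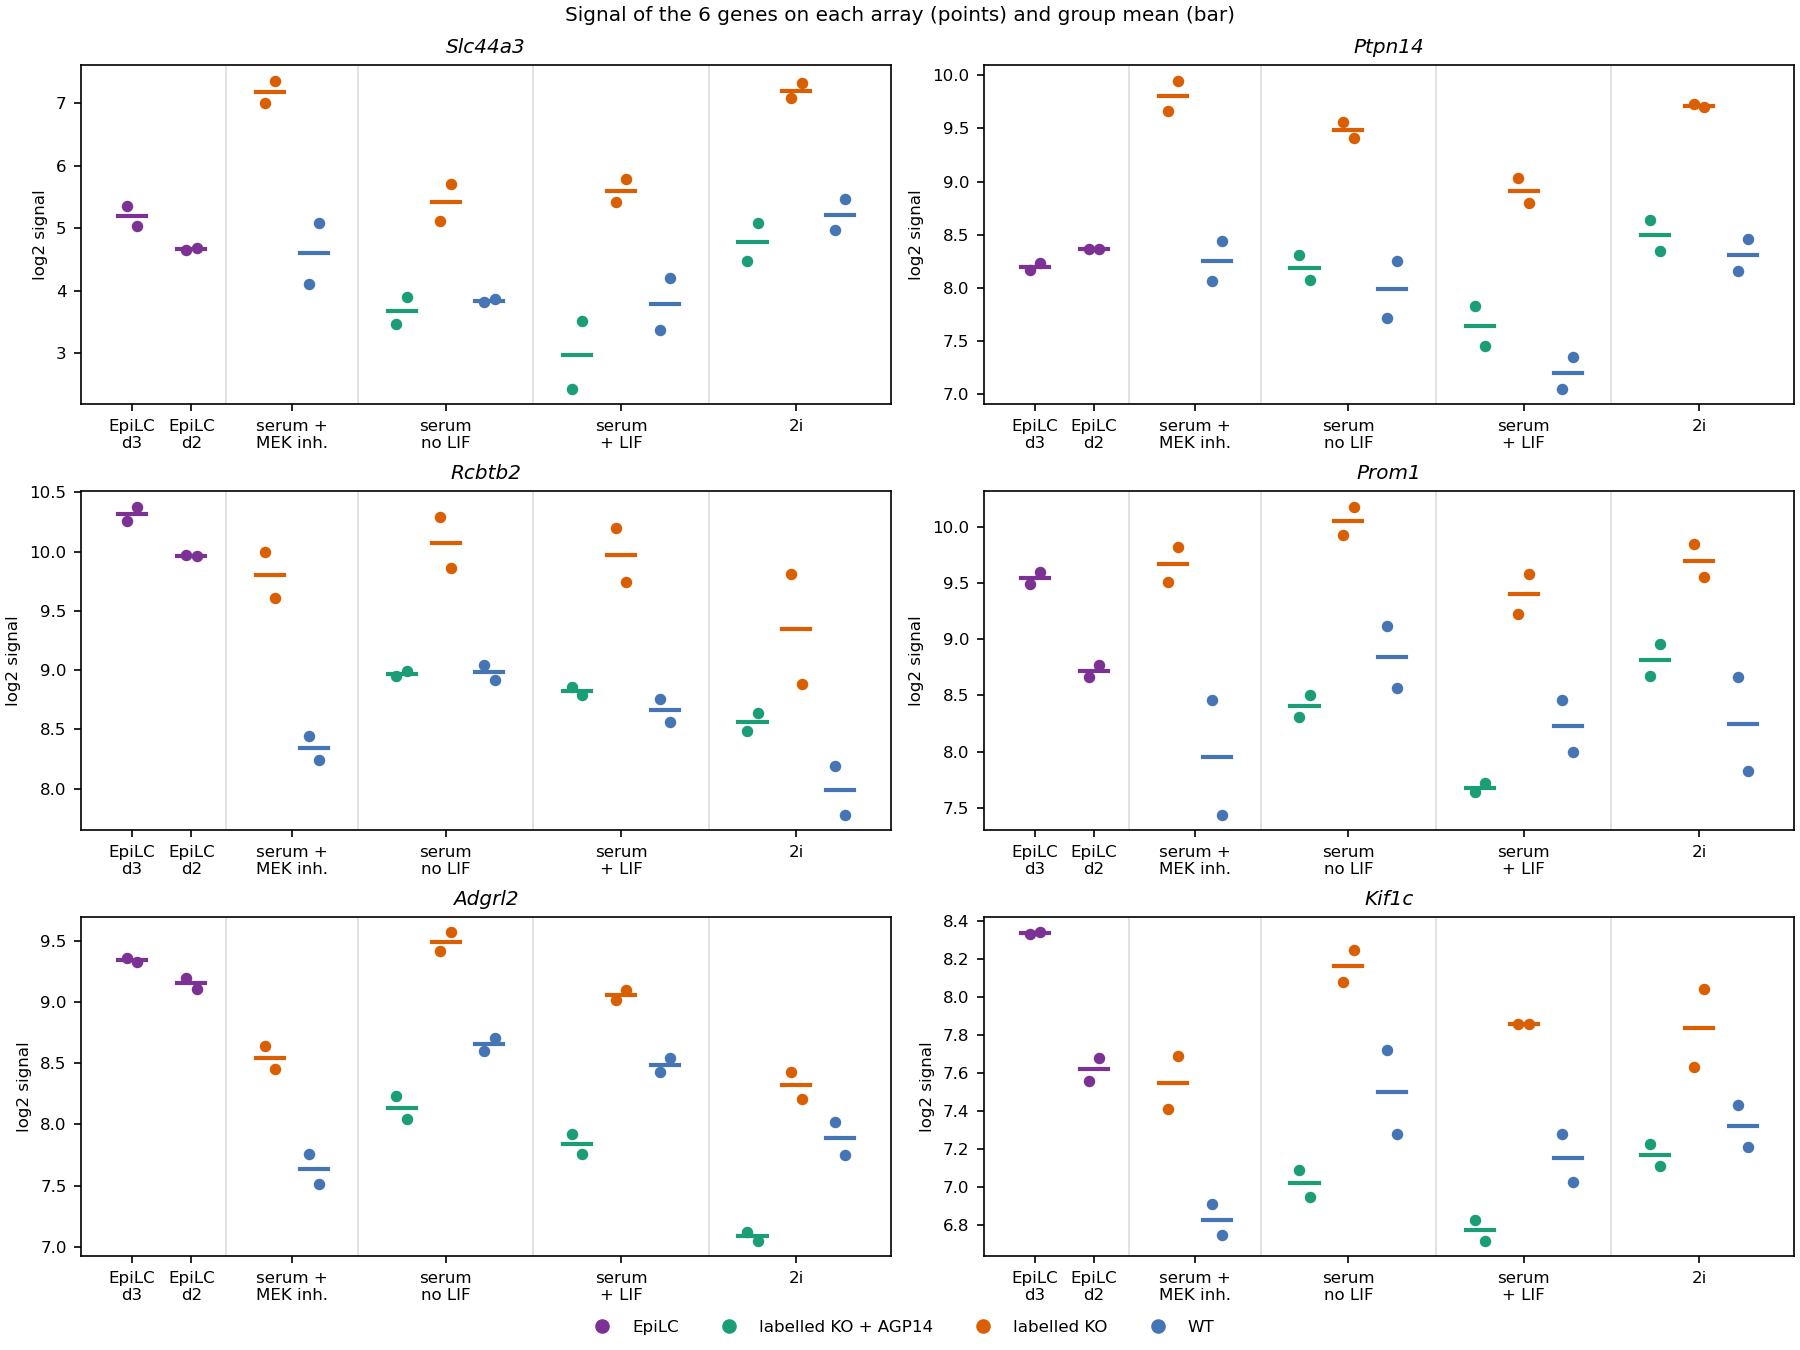
Log2 signal (y axis) of each of the 6 genes on every array (points) with the mean of each group (bars), by state and medium along the x axis; d3 and d2 are EpiLC of day 3 and day 2. In every medium both arrays labelled knockout lie above both wild-type arrays, and where AGP14 arrays exist both lie below the arrays labelled knockout.

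Slc44a3 showed the largest differences of the 6. In 2i it read 4.47 and 5.08 in AGP14 arrays, 7.08 and 7.32 in the arrays labelled knockout and 4.97 and 5.46 in wild-type arrays. In serum it read 2.43 and 3.51 in AGP14 arrays, 5.42 and 5.78 in the arrays labelled knockout and 3.37 and 4.21 in wild-type arrays. Without LIF the values were 3.46 and 3.90 in AGP14 arrays, 5.12 and 5.71 in the arrays labelled knockout and 3.82 and 3.86 in wild-type arrays. AGP14 and wild-type arrays overlapped in all 3 media, and neither overlapped the arrays labelled knockout. With MEK inhibitor it read 7.0 and 7.36 in the arrays labelled knockout and 4.11 and 5.08 in wild-type arrays, the widest gap of the 4 media. EpiLC read 5.36 and 5.03 on day 3 and 4.65 and 4.69 on day 2, within the wild-type range over all media (3.37 to 5.46). The probe set was dim, under 5 on 13 of the 26 arrays. Its 13 group means ran from 7.20 in the arrays labelled knockout in 2i to 2.97 in AGP14 arrays in serum, and in that order 10 of the 12 pairs of neighbours overlapped.

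Ptpn14, the YAP-binding phosphatase gene, was higher in all arrays labelled knockout than in any wild-type array. In 2i Ptpn14 read 8.64 and 8.35 in AGP14 arrays, 9.73 and 9.70 in the arrays labelled knockout and 8.16 and 8.46 in wild-type arrays. In serum it read 7.83 and 7.45 in AGP14 arrays, 9.03 and 8.80 in the arrays labelled knockout and 7.05 and 7.35 in wild-type arrays. Without LIF it read 8.31 and 8.07 in AGP14 arrays, 9.56 and 9.41 in the arrays labelled knockout and 7.72 and 8.25 in wild-type arrays. In serum both AGP14 arrays were above both wild-type arrays, and in the other 2 media they overlapped. With MEK inhibitor it read 9.66 and 9.95 in the arrays labelled knockout and 8.06 and 8.44 in wild-type arrays. Over the media together the 8 arrays labelled knockout (8.80 to 9.95) lay above all 8 wild-type arrays (7.05 to 8.46). Same-numbered arrays of a genotype deviated together across media, so here and below such sets of 8 are not 8 independent samples. The choice favoured this separation, and its share over all genes is not given here. The 4 EpiLC arrays (8.17 to 8.37) also lay below all arrays labelled knockout on this probe set. On 1436442_at, another Ptpn14 probe set, EpiLC read 9.02 and 8.99 on day 3, above every array labelled knockout (at most 8.34), and 8.12 and 8.19 on day 2, so the probe sets disagree on EpiLC. Group means ran from 9.81 in the arrays labelled knockout with MEK inhibitor to 7.20 in wild type in serum, with 8 of 12 pairs of neighbours overlapping.

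Prom1 was likewise higher in all arrays labelled knockout than in any wild-type array. In 2i Prom1 read 8.67 and 8.96 in AGP14 arrays, 9.85 and 9.55 in the arrays labelled knockout and 8.66 and 7.83 in wild-type arrays. In serum it read 7.64 and 7.72 in AGP14 arrays, 9.22 and 9.58 in the arrays labelled knockout and 8.46 and 8.0 in wild-type arrays. Without LIF it read 8.31 and 8.50 in AGP14 arrays, 9.93 and 10.18 in the arrays labelled knockout and 9.12 and 8.57 in wild-type arrays. AGP14 arrays thus lay narrowly above wild type in 2i and below it in both serum media, without overlap. With MEK inhibitor the values were 9.51 and 9.82 in the arrays labelled knockout and 8.46 and 7.44 in wild-type arrays. The 8 arrays labelled knockout spanned 9.22 to 10.18 and the 8 wild-type arrays 7.44 to 9.12. EpiLC read 9.49 and 9.60 on day 3, within the range of the arrays labelled knockout, and 8.66 and 8.77 on day 2, below it. Group means ran from 10.06 in the arrays labelled knockout without LIF to 7.68 in AGP14 arrays in serum, with 9 of 12 pairs of neighbours overlapping.

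For Rcbtb2 the highest group was EpiLC. EpiLC read 10.26 and 10.38 on day 3 and 9.97 and 9.96 on day 2, above all 8 wild-type stem cell arrays (7.78 to 9.04). In 2i it read 8.49 and 8.64 in AGP14 arrays, 9.81 and 8.88 in the arrays labelled knockout and 8.19 and 7.78 in wild-type arrays. In serum it read 8.86 and 8.79 in AGP14 arrays, 10.20 and 9.74 in the arrays labelled knockout and 8.76 and 8.56 in wild-type arrays. The arrays labelled knockout differed from each other by 0.93 in 2i, the widest spread of this gene. Without LIF it read 8.95 and 8.99 in AGP14 arrays, 10.29 and 9.86 in the arrays labelled knockout and 9.04 and 8.92 in wild-type arrays. With MEK inhibitor it read 10.00 and 9.61 in the arrays labelled knockout and 8.44 and 8.24 in wild-type arrays. AGP14 arrays lay above wild type in 2i and in serum and between the 2 wild-type arrays without LIF. Group means ran from 10.32 in EpiLC of day 3 to 7.99 in wild type in 2i, with 8 of 12 pairs of neighbours overlapping.

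Adgrl2, the latrophilin 2 gene, was lowest with the transgene, below wild type too. In 2i Adgrl2 read 7.12 and 7.05 in AGP14 arrays, 8.43 and 8.21 in the arrays labelled knockout and 8.02 and 7.75 in wild-type arrays. In serum it read 7.92 and 7.76 in AGP14 arrays, 9.02 and 9.10 in the arrays labelled knockout and 8.43 and 8.54 in wild-type arrays. Without LIF it read 8.23 and 8.04 in AGP14 arrays, 9.42 and 9.57 in the arrays labelled knockout and 8.60 and 8.71 in wild-type arrays. Both AGP14 arrays lay below both wild-type arrays in all 3 media. With MEK inhibitor it read 8.64 and 8.45 in the arrays labelled knockout and 7.76 and 7.51 in wild-type arrays. EpiLC read 9.36 and 9.33 on day 3 and 9.20 and 9.11 on day 2, above all 8 wild-type arrays (7.51 to 8.71). Group means ran from 9.50 in the arrays labelled knockout without LIF to 7.09 in AGP14 arrays in 2i, with 6 of 12 pairs of neighbours overlapping, the fewest of the 6 genes.

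Kif1c, the kinesin-3 motor gene, had the narrowest range of group means of the 6. In 2i Kif1c read 7.23 and 7.11 in AGP14 arrays, 7.63 and 8.04 in the arrays labelled knockout and 7.43 and 7.21 in wild-type arrays. In serum it read 6.83 and 6.72 in AGP14 arrays, 7.86 and 7.86 in the arrays labelled knockout and 7.28 and 7.03 in wild-type arrays. Without LIF it read 7.09 and 6.95 in AGP14 arrays, 8.08 and 8.25 in the arrays labelled knockout and 7.72 and 7.28 in wild-type arrays. AGP14 and wild-type arrays overlapped in 2i, and AGP14 arrays were the lower ones in both serum media. With MEK inhibitor it read 7.41 and 7.69 in the arrays labelled knockout and 6.91 and 6.75 in wild-type arrays. EpiLC read 8.33 and 8.34 on day 3, the highest group, and 7.56 and 7.68 on day 2. Group means spanned 1.56 log2 units, from 8.34 in EpiLC of day 3 to 6.78 in AGP14 arrays in serum, and 9 of 12 pairs of neighbours overlapped.

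The differences that chose the genes were as follows. For the arrays labelled knockout minus wild type, Slc44a3 differed by 1.99 in 2i, 1.81 in serum, 1.58 without LIF and 2.59 with MEK inhibitor (SE 0.38 each). Ptpn14 differed by 1.41, 1.72, 1.50 and 1.56 in the same order of media (SE 0.18). Prom1 differed by 1.46, 1.17, 1.21 and 1.72 (SE 0.28), and Rcbtb2 by 1.36, 1.31, 1.10 and 1.47 (SE 0.22). The remaining pair differed by less than 1, that is by less than 2-fold. Adgrl2 differed by 0.44, 0.58, 0.84 and 0.91 (SE 0.12), and Kif1c by 0.52, 0.71, 0.67 and 0.72 (SE 0.16). All 6 were called in each medium, which the choice fixed. Over all genes 3.63% were called higher in 2i, 1.39% in serum, 1.75% without LIF and 1.86% with MEK inhibitor. In bulk samples, fewer cells of a type and less RNA per cell cannot be told apart. Leaving out any 1 of the 4 arrays of a comparison kept all of these differences positive, with Adgrl2 between 0.30 and 1.04 and Kif1c between 0.31 and 0.89. Slc44a3 ranged from 1.28 to 3.07, Ptpn14 from 1.24 to 1.87, Prom1 from 0.94 to 2.23 and Rcbtb2 from 0.88 to 1.83. With 1 array left out, the differences that moved by over 1.5 times were in 2i, Rcbtb2 to 0.90 without knockout replicate 1 and Kif1c to 0.31 without knockout replicate 2. Averaging a gene's probe sets, dim ones included, lowered more of them. Ptpn14 was then 0.79 in 2i, 1.07 in serum, 0.96 without LIF and 0.93 with MEK inhibitor. Adgrl2 was 0.20 in serum, 0.39 without LIF and 0.14 with MEK inhibitor. Rcbtb2 was 0.70 without LIF and 0.89 with MEK inhibitor, and Kif1c 0.42 with MEK inhibitor.

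The comparison of AGP14 with knockout uses the same arrays labelled knockout as the comparison above and is not independent of it. AGP14 minus knockout was -2.43 in 2i, -2.63 in serum and -1.74 without LIF for Slc44a3 (SE 0.38). It was -1.22, -1.28 and -1.30 for Ptpn14 (SE 0.18) and -0.89, -1.72 and -1.65 for Prom1 (SE 0.28). For Rcbtb2 it was -0.78, -1.15 and -1.11 (SE 0.22). For all 6 genes both AGP14 arrays lay below both arrays labelled knockout in every medium with AGP14, which the choice favoured. Adgrl2 gave -1.24, -1.22 and -1.36 (SE 0.12), and Kif1c gave -0.67, -1.09 and -1.15 (SE 0.16). All 6 were called by the choice, beside 16.0% of all genes called lower in 2i, 5.28% in serum and 5.22% without LIF. In 2i the 2 groups also differed in spike-in level, and its part in that difference was not tested. The Rcbtb2 difference in 2i was -0.32 without knockout replicate 1 and -1.25 without knockout replicate 2, and -0.08 with the mean of its 5 probe sets. The differences of the other genes moved by less than 1.5 times when 1 array was left out. Averaged over probe sets, Ptpn14 was -0.71 in 2i, -0.905 in serum and -1.04 without LIF. Adgrl2 was then -0.94 in 2i and -0.41 in serum, and Kif1c -0.68 in serum and -0.56 without LIF.

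**Figure D2:**
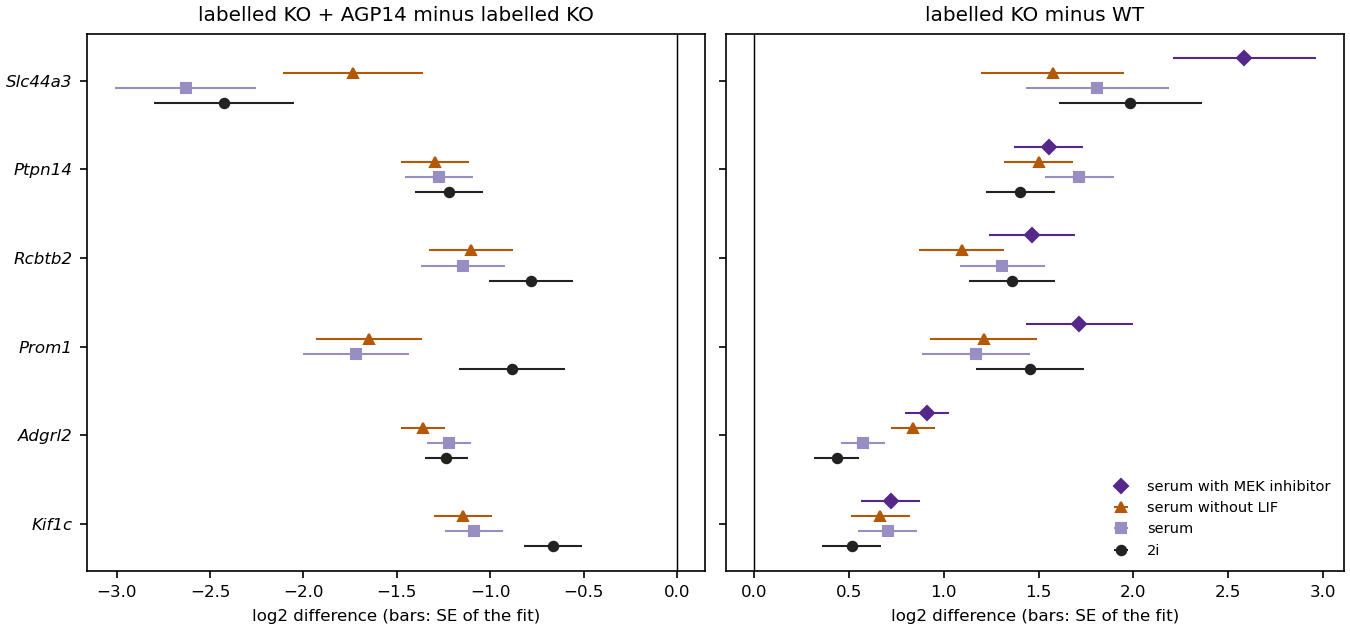
Log2 differences that chose the 6 genes, AGP14 minus labelled knockout on the left (3 media) and labelled knockout minus wild type on the right (4 media); points are estimates and bars their standard errors. Every point on the left is below 0 and every point on the right above 0, from 0.44 for Adgrl2 in 2i to 2.59 for Slc44a3 with MEK inhibitor.

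Just outside the choice were genes called in 3 of the 4 media and lower with AGP14 in all 3. There were 8, namely AI661453, Amotl1, Arid2, Atxn1l, Capg, Fgfr1, Gulp1 and Klf6. Amotl1, an angiomotin-like gene of the Hippo pathway, differed by 0.34 in 2i, where it missed the call, and by 0.71, 0.77 and 0.58 in serum, without LIF and with MEK inhibitor. Among the 24 genes that met the first condition Prex2 ranked first, at 1.78 to 2.10 for knockout minus wild type, and it differed by -0.28, -0.04 and 0.34 between AGP14 and knockout. Ranked by the smallest of the 4 differences, Slc44a3, Ptpn14, Prom1 and Rcbtb2 came 2, 3, 4 and 5 of the 24. Kif1c came 10 and Adgrl2 came 14. Of the 24 genes, 4 were called lower with AGP14 in 2 media, 6 in 1 and 5 in none.

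How near the transgene brought the genes to wild type is given by AGP14 minus wild type. This is the sum of the differences that chose the genes, so it is described without a test. Adgrl2 lay below wild type in all 3 media. It differed by -0.80 in 2i, -0.65 in serum and -0.52 without LIF (SE 0.12 each), and the 2i groups differ in spike-in level. With the mean of its 3 probe sets the Adgrl2 differences were -0.52 in 2i, -0.21 in serum and -1.06 without LIF. That mean includes 1444906_at, at most 3.16 on any array, which without LIF averaged 0.80 in AGP14 and 2.99 in wild type. On 1434111_at the group means without LIF were 7.465 and 7.94 in the same order. Adgrl2 was the 1 gene of 6 past the limit in each medium. The share of all genes past it was 25.4% in 2i, 6.96% in serum and 10.7% without LIF. Nothing is read from these counts.

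The other 5 genes lay on either side of wild type. Ptpn14 differed by 0.19 in 2i, 0.44 in serum and 0.21 without LIF (SE 0.18). Slc44a3 differed by -0.44, -0.82 and -0.16 in the same order (SE 0.38). Rcbtb2 differed by 0.58, 0.17 and -0.01 (SE 0.22), with 0.90 in 2i for the mean of its 5 probe sets. Prom1 differed by 0.57, -0.55 and -0.44 (SE 0.28), and Kif1c by -0.15, -0.38 and -0.48 (SE 0.16). Ptpn14 was thus above wild type in all 3 media, Slc44a3 and Kif1c below it in all 3 (Kif1c in 2i at 0.04 with quantile normalization), and Prom1 above it in 2i and below it in both serum media. Without wild-type replicate 1 in 2i the Prom1 difference there was 0.99. Of 26 feeder markers 12 were called lower in AGP14 than in wild type in 2i, 6 higher in serum and 16 higher without LIF, and their part in these differences was not tested.

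**Figure D3:**
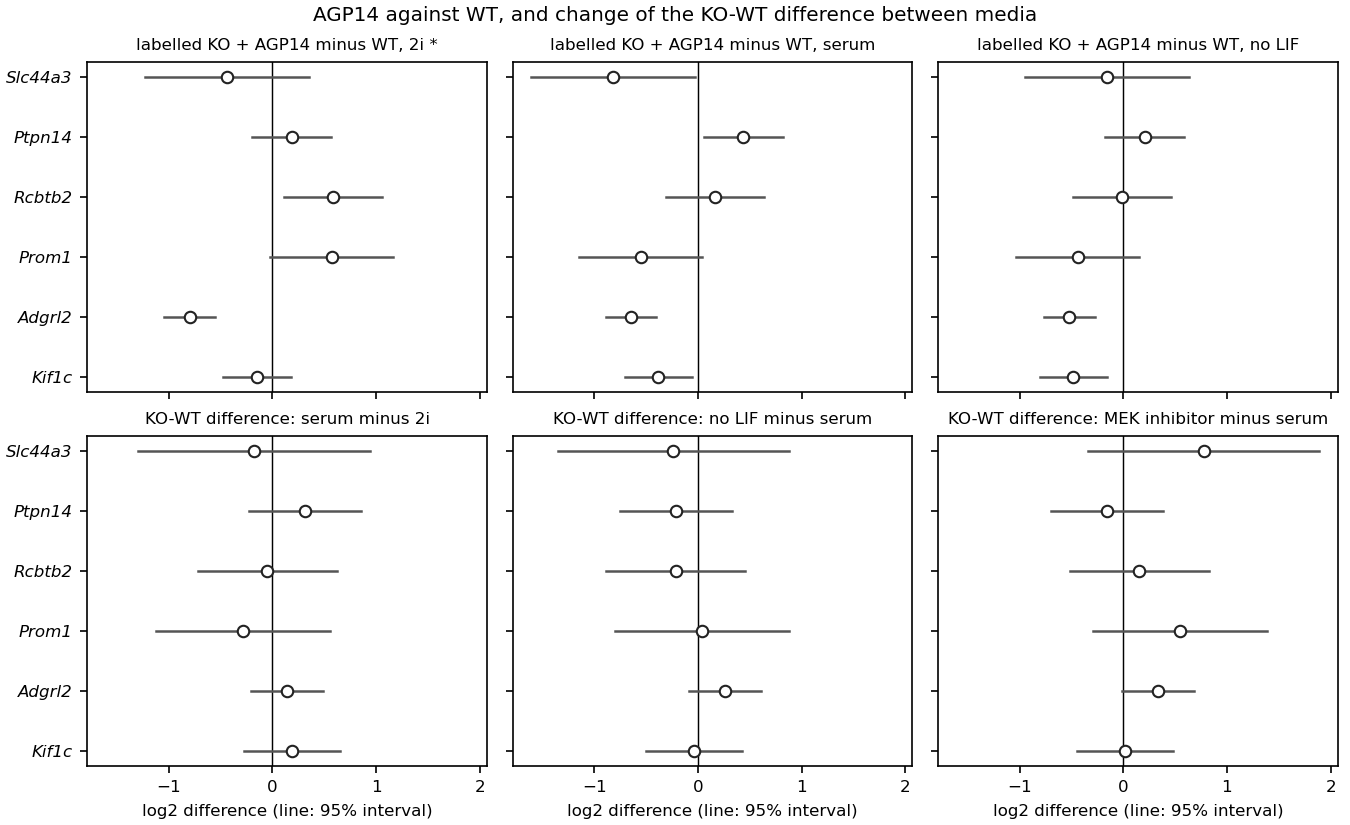
AGP14 minus wild type in 3 media (top row) and the change of the knockout minus wild-type difference between media (bottom row), as log2 differences with 95% intervals, for the 6 genes; both are made of the values that chose the genes, and the asterisk marks groups of unequal spike-in level. Adgrl2 lies left of 0 in each top panel, at -0.80, -0.65 and -0.52, and in the bottom row the points run from -0.29 for Prom1 to 0.78 for Slc44a3.

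The size of the genotype difference also varied between media. The genes had to be called higher in all 4 media, which selects against a difference that varies, so these values are a description as well. From 2i to serum the difference changed by -0.29 for Prom1 to 0.31 for Ptpn14. With loss of LIF it changed by -0.24 for Slc44a3 to 0.27 for Adgrl2. From serum to serum with MEK inhibitor it changed by -0.16 for Ptpn14 to 0.78 for Slc44a3, whose interval ran from -0.34 to 1.89. No gene of the 6 was past the limit in limma, beside 2.97% of all genes for serum, 0.00% for loss of LIF (0 of 18193 genes by limma, with 654 at an unadjusted p under 0.05) and 0.231% for MEK inhibitor. Nothing is read from these counts.

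Between media the genes differed in different directions. The choice did not use differences between media. The media comparisons here and below use the arrays that chose the genes, so their tests are not independent of the choice. Serum minus 2i was lower for Slc44a3 and Ptpn14 in every genotype and higher for Adgrl2 in every genotype. Slc44a3 fell by 1.81 in AGP14 cells, 1.60 in the cells labelled knockout and 1.43 in wild type (limma adjusted p = 0.00213, 0.00233 and 0.0059). Ptpn14 fell by 0.86, 0.80 and 1.11 (adjusted p = 0.0025, 0.00176 and 8.87e-05). Adgrl2 rose by 0.76, 0.74 and 0.60 (adjusted p = 0.000153, 5.45e-05 and 0.000473). Serum therefore had the lower Slc44a3 and Ptpn14 and the higher Adgrl2 in all 3 genotypes. The AGP14 groups share 1 spike-in level, while in the other genotypes 2i and serum differ in it and its part was not tested. Rcbtb2 differed by 0.26 in AGP14 cells, which did not pass, and rose by 0.63 in the cells labelled knockout and by 0.68 in wild type (limma adjusted p = 0.0367 and 0.0253). Prom1 fell by 1.14 in AGP14 cells (adjusted p = 0.00802) and differed by -0.30 and -0.02 in knockout and wild type, which did not pass. Kif1c differed by -0.40, 0.03 and -0.17, none of which passed, although the first did with line, that is genotype and replicate number, as a random block (adjusted p = 0.0259 in limma). In each genotype 4 of 6 genes were called, beside 18.2% of all genes in AGP14, 35.8% in knockout and 34.6% in wild type.

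Feeder marker signal also fell with the step to serum, with 16 of 26 markers called lower in AGP14 cells and 20 of 26 in each of the other genotypes. Slc44a3 and Ptpn14 fell with it in all 3 genotypes and Prom1 in AGP14 cells, while Adgrl2 rose in all 3 and Rcbtb2 in knockout and wild type. Its part in these differences was not tested.

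Several of these calls rested on single arrays. The Rcbtb2 rise in the cells labelled knockout was 0.16 (limma adjusted p = 0.634) without knockout replicate 2 in 2i, 1.09 without knockout replicate 1 in 2i and 0.40 (0.311) without knockout replicate 1 in serum. It also lost its call without the intensity trend (adjusted p = 0.0656) and with the 4 arrays alone (0.223). In wild type the Rcbtb2 call was lost without replicate 2 in 2i (0.47, adjusted p = 0.224) or replicate 1 in serum (0.58, adjusted p = 0.149). Slc44a3 in wild type lost it without replicate 2 in 2i (adjusted p = 0.0678) or replicate 1 in serum (0.105) and with the 4 arrays alone (0.0522). Slc44a3 in AGP14 cells lost it without replicate 1 in serum (-1.27, adjusted p = 0.067). Prom1 in AGP14 cells lost it without replicate 2 in 2i (adjusted p = 0.0871) or replicate 1 in serum (0.0656). Adgrl2 kept its call without any single array. When its 3 probe sets were averaged its calls were lost, with 0.49 in AGP14 cells, -0.04 in knockout and 0.18 in wild type. That average includes 1444906_at, at most 3.16 on any array. On 1434111_at alone the group means were higher in serum than in 2i. They were 7.145 against 6.69 in AGP14 cells, 8.305 against 7.605 in knockout and 7.74 against 7.35 in wild type. Averaging probe sets also ended the Ptpn14 call in AGP14 cells (-0.37, adjusted p = 0.0798) and in knockout (-0.17, adjusted p = 0.385).

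Removing LIF gave values above 0 for most of the genes, few of which passed. In AGP14, knockout and wild-type cells 6, 5 and 6 of the 6 differences were above 0, with medians of 0.42, 0.37 and 0.33 beside 0.03, 0.00 and -0.02 over all genes. In wild-type cells Ptpn14 rose by 0.79 (95% interval 0.40 to 1.17, limma adjusted p = 0.0363), 1 of 6 genes beside 1.50% of all. That call was lost without wild-type replicate 2 of the LIF-free serum (0.52, adjusted p = 0.244) and without replicate 1 (0.159) or 2 (0.0947) in serum. It was also lost in a model of these 4 arrays alone (0.514), with the mean of probe sets (0.088) and without the intensity trend (0.0821). In AGP14 cells 0 of 6 genes were called (0.302% of all genes, 55 by limma), with differences from 0.15 for Rcbtb2 to 0.73 for Prom1. In the cells labelled knockout 0 of 6 were called (1.10% of all), with differences from -0.19 for Slc44a3 to 0.66 for Prom1. Adgrl2 there differed by 0.44 (limma adjusted p = 0.0908) and Ptpn14 by 0.57 (0.192). Both passed with line as a random block (adjusted p = 0.0316 for Adgrl2 and 0.0355 for Ptpn14).

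On the probe sets used, adding the MEK inhibitor to serum raised Ptpn14 and lowered Adgrl2 in both genotypes. It also raised Slc44a3 in the cells labelled knockout. The other Ptpn14 probe sets disagreed with each other. On 1436442_at the difference was -0.145 in knockout and 0.015 in wild type. On 1421499_a_at the group means were higher with the inhibitor, 6.345 against 5.955 in knockout and 5.75 against 5.265 in wild type. In the cells labelled knockout Slc44a3 rose by 1.58 (SE 0.38, limma adjusted p = 0.00439), Ptpn14 rose by 0.89 (SE 0.18, adjusted p = 0.0013) and Adgrl2 fell by 0.52 (SE 0.12, adjusted p = 0.00295). In wild type Ptpn14 rose by 1.05 (adjusted p = 0.000299) and Adgrl2 fell by 0.85 (adjusted p = 3.02e-05), while Slc44a3 differed by 0.81, which did not pass (0.133). So 3 of 6 genes in knockout and 2 of 6 in wild type were called, beside 24.5% and 25.4% of all genes. Rcbtb2, Prom1 and Kif1c differed by -0.33 to 0.27 in these comparisons and did not pass. Without knockout replicate 2 with the inhibitor, the Slc44a3 and Adgrl2 calls in knockout were lost (adjusted p = 0.0512 and 0.0509). Without wild-type replicate 1 with the inhibitor, Slc44a3 in wild type was 1.29 and passed (0.0383), and it passed with line as a random block (0.0482). With the mean of probe sets the Adgrl2 calls (-0.37 in knockout and -0.31 in wild type, adjusted p = 0.35 and 0.44) and the Ptpn14 call in knockout (0.38, adjusted p = 0.0512) were lost. The Adgrl2 mean includes 1444906_at, at most 3.16 on any array. On 1434111_at of Adgrl2 the group means were lower with the inhibitor, 7.78 against 8.305 in knockout and 7.255 against 7.74 in wild type. The serum arrays and the inhibitor arrays differ in spike-in level, and its part was not tested. Feeder markers were called higher with the inhibitor in 19 of 26 cases in knockout and 20 of 26 in wild type, and their part was not tested either.

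Because 2i and serum with MEK inhibitor share 1 spike-in level, they were also compared directly, a comparison added after the spike-in levels were seen. In the cells labelled knockout 0 of 6 genes were called by limma (13.2% of all genes), with differences from -0.29 for Kif1c to 0.46 for Rcbtb2. In wild type Kif1c differed by -0.49 (adjusted p = 0.0458), 1 of 6 beside 12.5% of all. Leaving out any single array ended the Kif1c call (0.0565 to 0.263), as did quantile normalization (0.0581), a fit with no intensity trend (0.0653), the mean of probe sets (0.702) and a fit to these 4 arrays (0.201). Without knockout replicate 1 in 2i Rcbtb2 in knockout was 0.93 and passed (0.00733). Slc44a3 differed by -0.02 in knockout (interval -0.81 to 0.77) and -0.62 in wild type (-1.41 to 0.17), and Ptpn14 by 0.09 and -0.06. As a description, the genotype difference was larger with the inhibitor than in 2i by 0.11 for Rcbtb2 to 0.60 for Slc44a3, with 0 of 6 past the limit in limma beside 0.0605% of all genes.

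**Figure D4:**
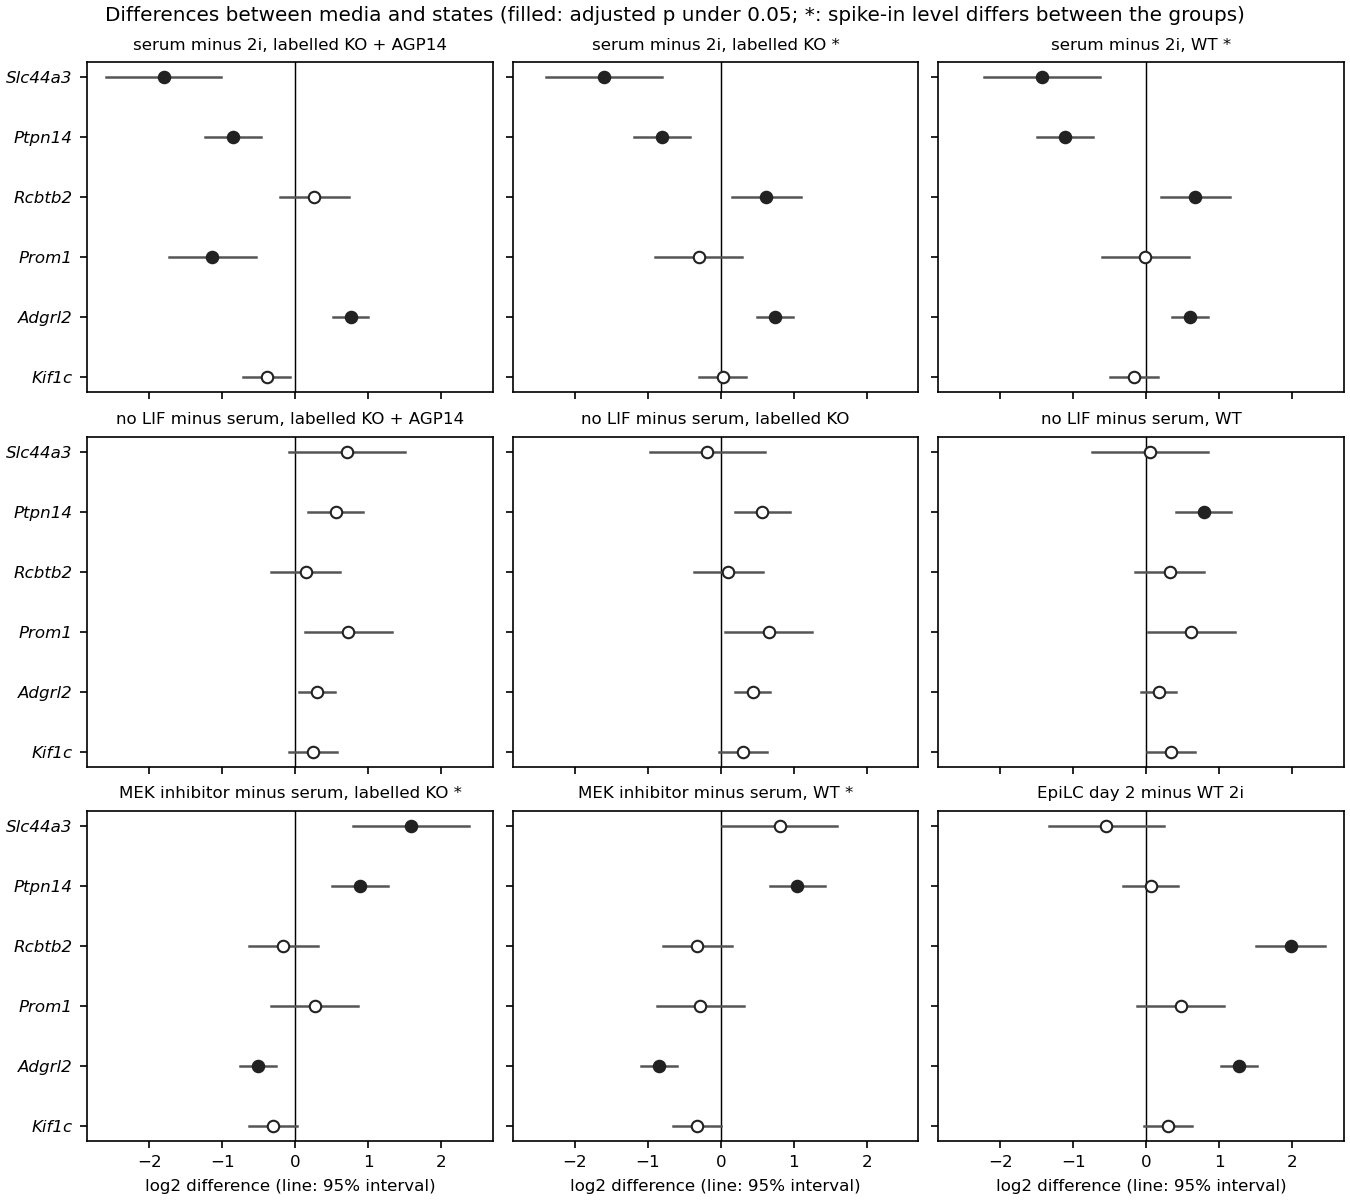
Log2 differences between media within each genotype, and of EpiLC day 2 from wild type in 2i, with 95% intervals, for the 6 genes; filled points passed an adjusted p under 0.05 and asterisks mark groups of unequal spike-in level. Slc44a3 and Ptpn14 lie left of 0 and Adgrl2 right of 0 for serum minus 2i in all 3 genotypes, and Rcbtb2 (1.98) and Adgrl2 (1.27) are the filled points for EpiLC.

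EpiLC are the in vitro counterpart of the epiblast after implantation, and their arrays took no part in the choice of the genes. Marker levels followed the label. The summed linear signal of 10 epiblast-like and primed markers was 21668 to 22930 in EpiLC of day 2 and 2267 to 2846 in wild type in 2i, and that of 13 naive markers 3162 to 3386 and 38892 to 41065. Rcbtb2 was higher by 1.98 in EpiLC of day 2 than in wild-type stem cells in 2i (95% interval 1.51 to 2.45, limma adjusted p = 9.27e-07), and Adgrl2 by 1.27 (1.03 to 1.51, adjusted p = 6.32e-08). The other genes did not pass. Slc44a3 differed by -0.55 (-1.34 to 0.25), Ptpn14 by 0.06 (-0.32 to 0.44), Prom1 by 0.47 (-0.12 to 1.06) and Kif1c by 0.30 (-0.03 to 0.63). So 2 of 6 genes were called, beside 38.3% of all genes, a share near that background. The choice favoured low wild-type values, and EpiLC come from another line, so state and line cannot be told apart. Without wild-type replicate 1 Prom1 was 0.89 and passed (adjusted p = 0.0349), and with quantile normalization Kif1c was 0.45 and passed (0.0158). With the mean of its 3 probe sets Ptpn14 was 0.69 and passed (0.000459), and 1436442_at alone gave 1.58. EpiLC arrays had summed feeder marker signals of 5437 to 7560, against 39688 to 40831 in wild type in 2i. Their part in these differences was not tested.

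From day 2 to day 3 of EpiLC, Kif1c rose by 0.72 (95% interval 0.39 to 1.04, limma adjusted p = 0.00296). It was 1 of 6 genes, beside 17.6% of all genes. Prom1 differed by 0.83 with an interval of 0.24 to 1.42 and missed the limit (adjusted p = 0.0504). It passed with dim genes left out (0.0389), with line as a random block (0.00749) and in a model of the 4 EpiLC arrays alone (5.1e-05). Rcbtb2 differed by 0.36, Slc44a3 by 0.53, Adgrl2 by 0.19 and Ptpn14 by -0.17, none of which passed, although Rcbtb2 did in a fit to the EpiLC arrays alone (0.00298). On 1436442_at Ptpn14 differed by 0.85. The other 3 Kif1c probe sets differed by 0.62, 0.17 and 0.30. The day 3 minus day 2 differences used none of the arrays behind the choice of the genes. Their intervals and limma p-values in the main fit did, because the spread was estimated over all arrays.

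Replicates of the same number moved together for some of the genes. Slc44a3 was lower on replicate 1 than on replicate 2 in 4 of 4 knockout groups, 4 of 4 wild-type groups and 3 of 3 AGP14 groups. Prom1 was higher on replicate 1 in 4 of 4 wild-type groups, by 0.46 to 1.02, and Kif1c likewise by 0.16 to 0.44. Ptpn14 was lower on replicate 1 in 4 of 4 wild-type groups, by 0.30 to 0.53 in size. Rcbtb2 was higher on replicate 1 in 4 of 4 knockout groups, by 0.39 to 0.93. The labels do not say what the number stands for.

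The 6 genes have 17 probe sets with a single symbol, and the others were set beside the one used. Slc44a3 and Prom1 have 1 each. For Rcbtb2, 1416390_at gave 1.33 to 1.54 for knockout minus wild type over the 4 media and 1447634_x_at gave 1.12 to 1.46, close to the 1.10 to 1.47 of the one used, 1416389_a_at. The other 2 probe sets of Rcbtb2 were dim, 1429742_at at -0.57 to 0.30 and 1431017_at at 0.06 to 0.80, and both were higher in AGP14 than in knockout in 2i (1.15 and 0.56). For Ptpn14 the other 2 gave smaller differences, 0.54 to 0.69 for 1421499_a_at and 0.32 to 0.85 for 1436442_at. The step from 2i to serum also differed between them: 1436442_at was higher in serum by 0.04 in AGP14 cells, 0.70 in knockout and 0.22 in wild type, where the probe set used was lower in each. Adgrl2's 1434111_at gave 0.26 to 0.82, and its 1444906_at, never above 3.16, gave -1.01 to 0.57. For Kif1c, 1424747_at gave 0.28 to 0.58, 1426325_at -0.06 to 0.45 and 1436224_at 0.22 to 1.38. Of the 17 probe sets 14 were thus higher in the arrays labelled knockout in all 4 media. The choice fixed this for the 6 probe sets used, and the others measure the same RNA samples. The share over all probe sets is not given here, and nothing is read from this count.

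**Figure D5:**
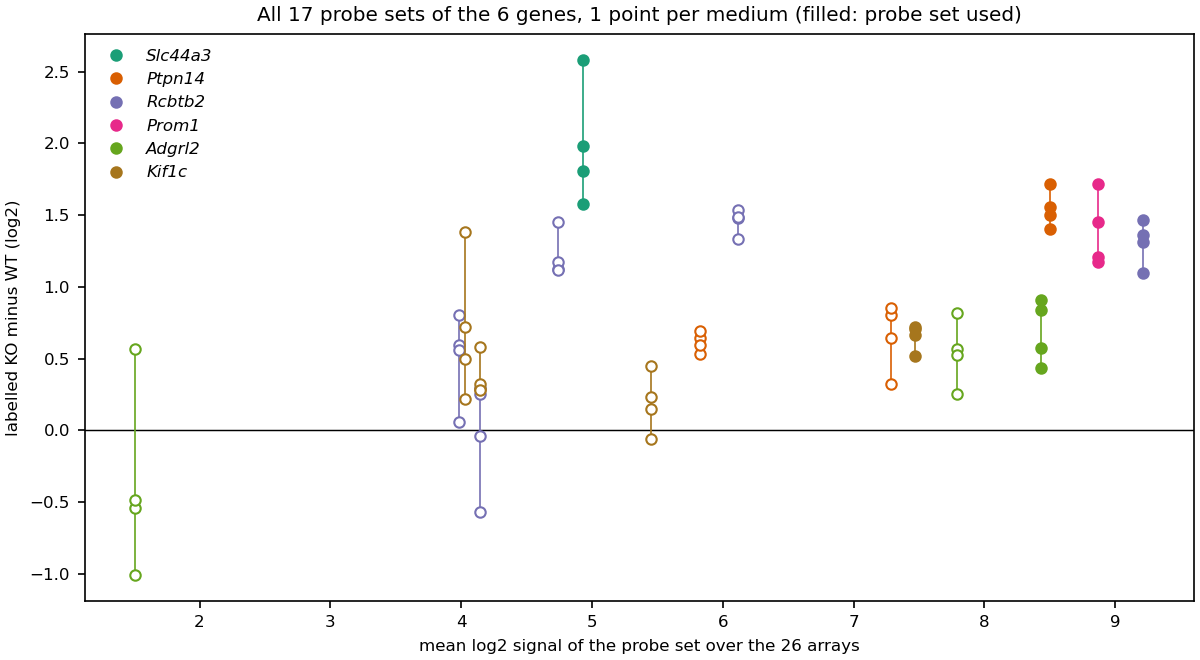
Knockout minus wild type (log2, y axis) of all 17 probe sets of the 6 genes against the mean log2 signal of the probe set over the 26 arrays (x axis), 1 point per medium joined by a line; filled points are the probe sets used. The filled points lie between 0.44 and 2.59, and values below 0 occur for 1444906_at of Adgrl2, 1429742_at of Rcbtb2 and 1426325_at of Kif1c.

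Relatives of the 6 genes were counted beside them. Over all genes, called higher in the arrays labelled knockout were the 3.63%, 1.39%, 1.75% and 1.86% given above, and called lower were 5.52% in 2i, 2.79% in serum, 2.44% without LIF and 2.22% with MEK inhibitor. Of the 3 measured choline transporter-like paralogs of Slc44a3, 1 was higher in the arrays labelled knockout, Slc44a4 in 2i (0.61, limma adjusted p = 0.0113), and none in the other media. Of 4 FERM-domain phosphatases related to Ptpn14, Ptpn3 was higher in serum (0.45) and Ptpn13 with MEK inhibitor (0.58). Of 4 RCC1-repeat relatives of Rcbtb2, Rcc1 was lower in 2i (-0.30). Prom2 was called in no medium (-0.31 to 0.54), nor were Adgrl1, Adgrl3 and Adgrl4 (-0.14 to 0.61). Of 6 other kinesin-3 genes, Kif1a (1.10) and Kif1b (0.40) were higher without LIF, and both were lower with AGP14 there (-1.30 and -0.46). Of 7 genes listed here as possible transport partners of Kif1c, Ptpn1 among them, Hook1 was lower in 2i (-0.63) and Myh9 higher without LIF (0.51). Whether each of the 7 products works with Kif1c was not checked. Between AGP14 and knockout in 2i, 2 of 3 choline transporter-like genes (Slc44a4 at -1.34 and Slc44a2 at -0.62) and 3 of 4 FERM-domain phosphatase genes (Ptpn4 at -0.58, Ptpn21 at -0.51 and Ptpn3 at -0.40) were lower. So were 3 of 6 kinesin-3 genes (Kif1b at -1.0, Kif13a at -0.77 and Kif13b at -0.57) and Adgrl1 (-0.75) of 3 latrophilin genes, where 16.0% of all genes were lower. Ptpn13 (0.45), Rcc2 (0.26), Bicd2 (0.59) and Ptpn1 (0.36) were higher there. In serum Ptpn3 (-0.40) and Kif1b (-0.35) were lower with AGP14, where 5.28% of all genes were lower. The lists were drawn up with earlier results of these data known.

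The Hippo pathway, to which Ptpn14 belongs, had members called in both directions. Of 19 measured genes 3 were higher and 3 lower in the arrays labelled knockout in 2i, 4 and 1 in serum, 5 and 1 without LIF and 1 and 3 with MEK inhibitor. The shares of all genes called higher and lower were 3.63% and 5.52% in 2i, 1.39% and 2.79% in serum, 1.75% and 2.44% without LIF and 1.86% and 2.22% with MEK inhibitor. Between AGP14 and knockout 1 was higher and 5 lower in 2i, 3 and 5 in serum and 2 and 6 without LIF. Of all 18193 genes 4401 were called between AGP14 and knockout in 2i (2906 of them lower). In serum 1912 were called (960 lower), and without LIF 2421 (950 lower). The list's median differences were -0.02, 0.04, 0.28 and -0.02, beside -0.03, -0.02, -0.01 and -0.01 over all genes. Lats2, a kinase gene of the pathway, was higher by 0.81 in 2i, 0.90 in serum and 1.41 without LIF (limma adjusted p = 0.0492, 0.0486 and 0.00329). Amotl1 was higher by 0.71, 0.77 and 0.58 in the 3 serum media (adjusted p = 0.0159, 0.00867 and 0.047) and lower with AGP14 than in knockout, at -1.58, -1.14 and -0.91 in 2i, serum and the medium without LIF. The transcription factor gene Tead2 was lower in 2i (-0.35) and higher in serum (0.64) and without LIF (0.64). Among 12 YAP target genes 2 were higher in each of 2i, serum and the medium without LIF, 0 with MEK inhibitor, and none was lower. Lats2 and Amotl2 are in both lists. Ccn1, a matricellular protein gene, was one of the higher YAP target genes in serum (0.69, limma adjusted p = 0.0196) and without LIF (1.03, adjusted p = 0.00101). Ccn2 differed by -0.11 to 0.07 and passed in none.

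Feeder fibroblast RNA was followed with 26 measured marker genes. Their summed linear signal was 34584 to 36102 in the arrays labelled knockout and 39688 to 40831 in wild-type arrays in 2i. In serum it was 9039 to 9443 in the arrays labelled knockout and 11194 to 11321 in wild type. Without LIF it was 8750 to 9104 and 9524 to 9775, and with MEK inhibitor 16620 to 19349 and 22857 to 23262, in the same order of groups. The summed signal was thus lower beside the higher values of the 6 genes in every medium. Marker by marker the picture was mixed: none of 26 was called between these groups in 2i, 1 was higher and 2 lower in serum, 2 higher and 1 lower without LIF, and 1 lower with MEK inhibitor. The median marker difference was -0.07, 0.19, 0.45 and -0.19. In AGP14 arrays the sum was 27902 to 30089 in 2i, 13891 to 14208 in serum and 13206 to 14076 without LIF, so it was lower than in knockout in 2i and higher in the other media. All 26 markers had group means above 3 in every stem cell group. Of 13 naive markers 1 was higher and 2 lower in the arrays labelled knockout in 2i, 0 and 7 in serum, 0 and 7 without LIF and 1 and 2 with MEK inhibitor, the higher one being Prdm14 itself in both media. Between AGP14 and knockout 2 were higher and 1 lower in 2i, 11 and 0 in serum and 12 and 0 without LIF. The calls over all genes, for these and the other marker counts in this paragraph, are those given above with the Hippo genes. Of 10 EpiLC and primed markers 2 were higher in the arrays labelled knockout in 2i and none was called in the other media. Between AGP14 and knockout 0 were higher and 2 lower in 2i, 1 and 5 in serum (median -1.33) and 1 and 4 without LIF (median -0.71). No neuroectoderm (4) or mesoderm (5) marker was called between knockout and wild type. Of 9 extraembryonic endoderm markers at most 1 was called higher and 1 lower in a medium, and likewise of 8 trophoblast markers. The part of these marker sets in the differences of the 6 genes was not tested.

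Over the 13 group means the genes formed no single pattern. The correlations given here are descriptions over 13 groups that share arrays and feeder cells, so they carry no p. Slc44a3 ran most closely with Ptpn14 (Pearson r = 0.891), Prom1 with Kif1c (0.886) and Rcbtb2 with Adgrl2 (0.849), while Slc44a3 and Adgrl2 gave 0.234. The genes with profiles most like each, among those whose group means ranged over at least 1 log2 unit, were L3hypdh for Slc44a3 (0.919), Ctse for Ptpn14 (0.859) and Arrb1 for Rcbtb2 (0.910). They were Cers2 for Prom1 (0.893), Fign for Adgrl2 (0.979) and Cers2 again for Kif1c (0.942). For the mean of the 6 standardised profiles they were Fat1 (0.912), Eml1 (0.906), Nyap1 (0.892), Plekhg2 (0.889), Cers2 (0.874), Grip1 (0.862), Gulp1 (0.843) and Adad2 (0.841). Fat1, a giant protocadherin gene, is among the 9 genes that met both conditions of the choice, and Gulp1 is among the 8 just outside it. The knockout, wild-type and AGP14 groups behind the choice are among the 13. The choice therefore favours correlation among the 6, and likeness to genes that met the same or nearly the same conditions. Finding Fat1 and Gulp1 here is thus not separate evidence.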

How the data were processed

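Gene expression was measured on 26 Affymetrix arrays in 13 groups of 2, named from the labels. The deposited table holds the authors' processed values of 45100 probe sets on each array, on a log2 scale. Base 2 was inferred, and the sources used here do not give the background correction, normalization or summarisation. Medians of the arrays were between 4.86 and 5.01. Of the probe sets, 34944 had 1 gene symbol in the platform annotation, 932 had several and were not used, 9160 were unnamed here and 64 were controls. Each of 18193 genes was represented by the probe set of highest mean among those naming it alone. By Entrez ID 18032 genes matched RefSeq GRCm38.p6. Differences were tested two-sided with limma 3.58.1 in R 4.3.3, with 1 coefficient per group over all arrays (13 residual degrees of freedom), an intensity trend and Benjamini-Hochberg adjustment over all genes, and called at an adjusted p under 0.05. The procedure was tested on simulated data. Summaries and plots used Python 3.11.15, pandas 2.3.3, numpy 2.4.6 and matplotlib 3.10.9. The 6 genes, the lists and the comparisons were chosen with earlier results of these data known. Named genes are the 6, Prdm14, the genes most like them by correlation over group means (3 for each gene, of which the first is printed, and 8 for the mean profile), list genes that were called or are given as values that did not pass, and genes called higher in the arrays labelled knockout in all 4 media; those just outside were named after their values were seen. The alternatives tried are quantile normalization, leaving out dim genes (mean under 5), averaging a gene's probe sets, a fit with no intensity trend, the replicate number or line as a block, the compared arrays alone and leaving out each array. The number of arrays limits the precision.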

Additional observations from a re-analysis of the deposited data

How the results depend on the processing

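Of 114 pairs of a gene and a comparison, 25 were past the limit. These pairs include AGP14 minus wild type and the genotype differences between media, which are descriptions and not tests. Nothing is read from the total. Among the 8 comparisons of media within a genotype 18 of 48 pairs were called, with 10 under the mean of probe sets and 14 to 22 under the other alternatives listed in the methods. Leaving out each array in turn gave 15 to 19. For EpiLC the count was 3 of 12, with 3 to 5 when an array was left out and 5 in a model of the compared arrays alone. For AGP14 minus wild type, like the genotype difference between media a description made of the values that chose the genes, it was 3 of 18, with 2 to 4 when an array was left out, 5 with quantile normalization and 1 in a model of the compared arrays alone. For the genotype difference between media it was 0 of 18 in limma under every alternative run, leaving out each array included (0 to 0). For the added comparison of MEK inhibitor with 2i it was 1 of 18, with 0 to 2 when an array was left out, and 0 with quantile normalization, with no intensity trend or with the compared arrays alone. Restricting the media comparisons to groups of 1 spike-in level left 5 calls of 24 pairs, by construction fewer.

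Same-numbered arrays deviated together within a genotype across media (correlations of 0.419 to 0.619 in knockout, 0.391 to 0.624 in wild type and 0.245 to 0.303 in AGP14), and between genotypes at -0.118 to 0.133. The labels do not say what a number marks. With the replicate number as a block the counts were 19, 3, 5, 0 and 1 in the order above, and with genotype and number together as a random block (consensus correlation 0.203) they were 22, 4, 5, 0 and 1. With them as fixed columns, chosen after seeing the data, the counts were 29, 5, 12, 0 and 3, and such columns remove any difference between lines from the error. The mean of probe sets turned the called Adgrl2 rise in serum against 2i in knockout (0.74) to -0.0367, by averaging in a probe set that was at most 3.16. The cause of the other changes was not tested. Quantile normalization moved the median of all genes by -0.034 to 0.1. Values that were not called changed sign in 86 of 1445 settings, all of them under 0.48 in size.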
